A study of Mus musculus with 7 samples.

Results

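The S side and the G2M side of WT DN3b γδ- thymocytes are 4470 barcodes each. They were chosen by the measured levels of 9 cell cycle genes among the 17959 eligible of the 20946 barcodes in that library, out of 90016 barcodes in the series of 7 libraries. A barcode, which stands for 1 captured cell, was eligible with at least 1000 detected genes, at most 10% mitochondrial UMIs and at most 1 UMI of the B cell genes Cd79a, Cd79b and Ms4a1. A UMI is a tag that marks a single captured RNA molecule. The S side holds the highest 25% by the share of UMIs from Mcm3, Mcm5, Mcm6, Ung and E2f1. The G2M side holds the highest 25% by the share from Ccnb1, Cdc20, Cenpf and Ube2c. The 20 barcodes that were highest by both scores were left out, and 8999 were highest by neither.

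The library came from WT C57BL/6 mice aged 6 to 8 weeks, whose thymi of female and male animals had been pooled and stripped of cells bearing CD4 or CD8. Sorting took CD44- CD25+ CD71+ TCRγδ- cells, the DN3b γδ- stage, and 500 splenic B cells were added before capture. DN4 γδ- and DN3b γδ+, used here for comparison, were sorted from the same pool of thymi, according to the paper. Strain, genotype, age range and animals are thus shared, and the same number of B cells was added. They are the later CD25- stage of cells without a surface γδ TCR, and the CD25+ stage of cells with one. Every group was 1 library of pooled cells, so no difference was tested across samples. The intervals given are exact 95% intervals that cover counting error only.

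Thymocytes that pass β-selection at the DN3 stage, by signalling through the pre-TCR, divide rapidly. Before S phase, E2F factors drive genes that load the MCM helicase on replication origins, make nucleotides and copy DNA. Later, the B-MYB and FOXM1 complexes drive genes for the entry into mitosis, the spindle and the kinetochore, and the anaphase-promoting complex (APC/C) then marks mitotic proteins for destruction.

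Levels are UMIs of a gene per 1000000 UMIs summed over a side (CPM), and a log2 ratio is the CPM on the S side over that on the G2M side, so that a positive value means higher on the S side. A gene was compared when it reached 20 CPM on a side, which 5252 genes outside the 9 marker genes did. Of these, 29 (0.552%) were at least 2-fold higher on the S side and 103 (1.96%) at least 2-fold higher on the G2M side. The 29 were led by the E cyclins and by genes of origin licensing and chromatin assembly, and the 103 included genes of the spindle, the centromere and mitotic kinases. The median log2 ratio over all genes compared was -0.01, and 91.6% of them lay within 0.5 of 0 on the log2 scale. By CPM, 2476 of them were higher on the S side and 2776 on the G2M side.

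The promoters of the genes with the largest ratios are shown first, because genes of these phases are known to share promoter motifs. Each run is 1 RefSeq window of GRCm38.p6 from 250 bases before the transcription start to 50 bases after it, 5′ to 3′ on the strand of the gene. Capitals mark matches on either strand to 3 motifs. The E2F motif was searched in 4 forms, which were TTTCCCG, the form TTTCGCG, the form TTTGCCG and the form TTTGGCG. The cell cycle genes homology region (CHR) was searched as TTTGAA and in the variant form TTCGAA. The third was CCAAT, the motif of NF-Y. Shown are, for each direction, the 3 genes highest in the ranking that matched an entry. Ccne2 and Pif1 had none. From the S side these are Ccne1 (chr7:38107441-38107740, minus strand), Cdc6 (chr11:98907901-98908200, plus strand) and Donson (chr16:91688679-91688978, minus strand).
Ccne1: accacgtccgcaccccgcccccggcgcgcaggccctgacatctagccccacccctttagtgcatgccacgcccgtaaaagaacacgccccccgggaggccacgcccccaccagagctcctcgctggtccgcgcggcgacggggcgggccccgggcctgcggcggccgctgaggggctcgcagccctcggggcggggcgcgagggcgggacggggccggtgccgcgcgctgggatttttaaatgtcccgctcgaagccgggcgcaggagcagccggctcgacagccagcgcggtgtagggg
Cdc6: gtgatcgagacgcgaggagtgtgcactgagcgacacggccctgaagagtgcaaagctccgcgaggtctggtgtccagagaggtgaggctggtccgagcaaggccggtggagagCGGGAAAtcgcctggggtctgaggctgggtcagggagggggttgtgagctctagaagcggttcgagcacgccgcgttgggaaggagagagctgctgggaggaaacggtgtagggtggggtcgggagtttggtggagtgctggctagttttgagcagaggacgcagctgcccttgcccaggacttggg
Donson: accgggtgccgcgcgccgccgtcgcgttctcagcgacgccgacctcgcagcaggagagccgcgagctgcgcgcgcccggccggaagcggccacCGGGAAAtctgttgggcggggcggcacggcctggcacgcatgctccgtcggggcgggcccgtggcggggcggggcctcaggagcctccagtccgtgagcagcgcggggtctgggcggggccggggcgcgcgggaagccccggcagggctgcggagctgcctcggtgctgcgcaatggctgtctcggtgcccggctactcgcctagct

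From the G2M side these are Tuba1c (chr15:99029641-99029940, plus strand), Tnfaip8l1 (chr17:56162241-56162540, plus strand) and Aspm (chr1:139454523-139454822, plus strand).
Tuba1c: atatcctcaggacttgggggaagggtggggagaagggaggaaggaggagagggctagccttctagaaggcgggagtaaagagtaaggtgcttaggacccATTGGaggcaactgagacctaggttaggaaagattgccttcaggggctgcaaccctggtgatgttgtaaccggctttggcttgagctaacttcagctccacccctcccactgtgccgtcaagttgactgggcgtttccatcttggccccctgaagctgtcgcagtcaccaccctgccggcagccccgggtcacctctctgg
Tnfaip8l1: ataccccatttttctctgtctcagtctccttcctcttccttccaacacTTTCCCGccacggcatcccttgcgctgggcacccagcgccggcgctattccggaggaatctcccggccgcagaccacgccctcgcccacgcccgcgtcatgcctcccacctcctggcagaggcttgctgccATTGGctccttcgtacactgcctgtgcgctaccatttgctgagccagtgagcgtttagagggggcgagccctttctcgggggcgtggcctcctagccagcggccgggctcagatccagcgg
Aspm: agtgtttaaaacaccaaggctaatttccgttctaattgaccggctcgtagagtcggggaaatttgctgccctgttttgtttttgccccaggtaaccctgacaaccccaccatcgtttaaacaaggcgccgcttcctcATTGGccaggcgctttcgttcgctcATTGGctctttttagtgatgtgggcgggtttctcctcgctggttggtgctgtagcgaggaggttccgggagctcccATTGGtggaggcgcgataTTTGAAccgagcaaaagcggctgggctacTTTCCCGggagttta

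The Ccne1 window held none of the 3 motifs. The Cdc6 and Donson windows each held 1 E2F match, whose first base lay 137 and 157 bases before the RefSeq start. By the GENCODE annotation Cdc6 spans chr11:98907801-98923940, which begins before its window does. The Cdc6 match is thus upstream of the RefSeq start but inside the GENCODE gene. The Tuba1c window held CCAAT, read here as its reverse complement, 151 bases before the start. The Tnfaip8l1 window held CCAAT at 71 bases and an E2F match at 202 bases before the start. The Aspm window held CCAAT 3 times, a CHR match that began at base 7 of the transcript and an E2F match that began at base 36. A match describes letters and is not a binding site.

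Over the windows of all genes with a 2-fold difference, the shares of the motifs differed by side. RefSeq windows were found for 20 of the 29 genes higher on the S side (24 windows) and for 83 of the 103 genes higher on the G2M side (96 windows). An E2F match was in 12 of 24 windows of the S side (50%), in 16 of 96 of the G2M side (16.7%), in 13.2% of the 5225 windows of genes compared with a smaller difference, and in 6.70% of all 32851 windows. A CHR match was in 62 of 96 windows of the G2M side (64.6%) and in 4 of 24 of the S side (16.7%), against 14.1% and 19.2% of the same backgrounds. CCAAT was in 73 of 96 windows of the G2M side (76.0%) and in 14 of 24 of the S side (58.3%), against 37.3% and 37.4%. CHR and CCAAT stood together in 53 of 96 windows of the G2M side (55.2%) and in 3 of 24 of the S side (12.5%). The pair was in 5.63% of the windows of genes with a smaller difference and in 7.52% of all 32851 windows.

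The marker genes themselves are described without a test, since they chose the barcodes. The S cutoff was 1371 marker UMIs per 1000000 UMIs of the barcode, with the nearest barcodes at 1370.63 inside and 1370.61 outside. The G2M cutoff was 1222 on the same scale, with the nearest at 1222.23 and 1222.22. Within 5% of these cutoffs lay 1536 and 350 barcodes, so the S cutoff ran through a dense part of the distribution and the G2M cutoff through a sparse one. A median S side barcode held 26 S marker UMIs and 3 G2M marker UMIs, and a median G2M side barcode held 11 and 46.

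**Figure D1:**
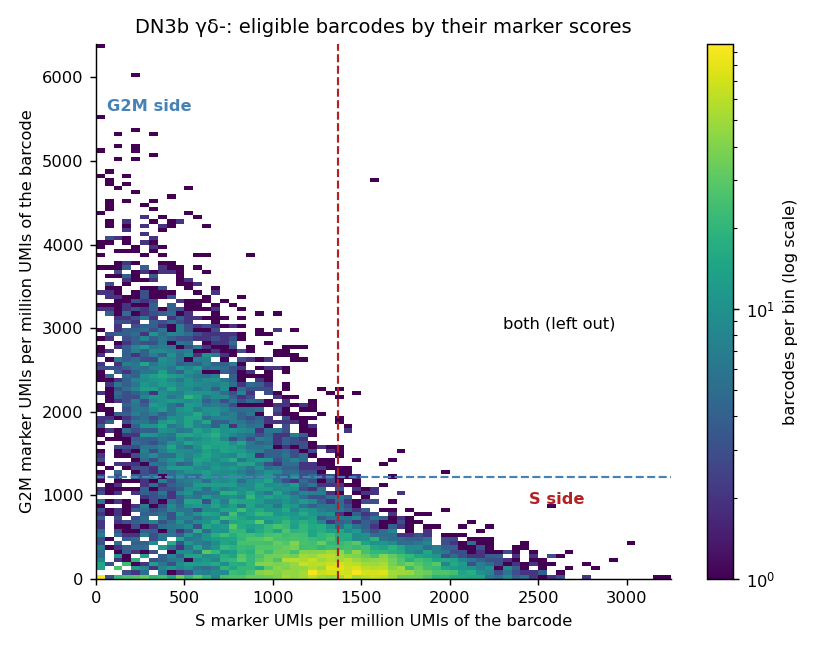
Eligible DN3b γδ- barcodes binned by S marker UMIs (x axis) and G2M marker UMIs (y axis), both per 1000000 UMIs of the barcode, coloured by the number of barcodes per bin on a log scale, with the 2 cutoffs as dashed lines. The S side lies to the right of the vertical line, the G2M side above the horizontal line, and 20 barcodes lie beyond both.

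Ung, a uracil-DNA glycosylase, stood at 197 CPM on the S side and 19.3 CPM on the G2M side. E2f1, a transcription factor of the G1 to S transition, stood at 111 and 24.3 CPM. The MCM subunits differed less, with Mcm5 at 359 CPM on the S side and 155 CPM on the G2M side and Mcm3 and Mcm6 at log2 ratios of 1.26 and 1.37. The MCM genes thus had smaller folds than Ung and E2f1 but larger differences in CPM, and they were also abundant on the G2M side. Ube2c, an E2 enzyme of the APC/C, stood at 86.6 CPM on the S side and 1094 CPM on the G2M side. Cyclin B1 (Ccnb1) stood at 40.00 and 281 CPM, Cenpf at 51.4 and 392 CPM and Cdc20, an APC/C activator, at 42.3 and 272 CPM.

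The sides also differed in depth. The median was 15896 UMIs and 3633 genes per barcode on the S side, 22093 UMIs and 4314 genes on the G2M side and 16127 UMIs in neither. The mean UMIs per barcode were 1.35 times higher on the G2M side, a shift of -0.43 on the log2 scale for every gene when UMIs per barcode replace CPM. Counted that way, a choice made after seeing the data, 6 genes were at least 2-fold higher on the S side and 197 on the G2M side. All 29 genes kept the S direction, while the share of 2-fold differences toward the S side went from 21.97% to 2.96%. Of all 5252 genes compared, 246 were higher on the S side by UMIs per barcode, with a median log2 ratio of -0.44. Ratios by CPM are therefore relative to the RNA captured per cell. Mitochondrial UMIs made up a median 2.76% and 2.67% of the S and G2M barcodes, and ribosomal protein UMIs 33.5% and 32.2%.

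Cyclins that start S phase had the largest ratios toward the S side. Ccne2, cyclin E2 (ENSMUSG00000028212, chr4:11191351-11204779, mm10), had 4746 UMIs on the S side and 1054 on the G2M side, which is 61.8 CPM (60.01 to 63.5) and 10.2 CPM (9.57 to 10.8). Its log2 ratio was 2.601 (2.504 to 2.699), and barcodes on neither side stood between at 44.03 CPM. Ccne1, cyclin E1 (chr7:38097984-38107534), stood at 49.6 CPM on the S side and 13.96 CPM on the G2M side, a log2 ratio of 1.83 (1.74 to 1.92). For both, the level on neither side was closer to that of the S side than to that of the G2M side. Of the other cyclins and kinases of G1, Cdk2 was at 32.5 and 18.4 CPM (0.82), while the D cyclins of these cells, Ccnd2 and Ccnd3, had log2 ratios of 0.29 and 0.095, and Cdk4 and Cdk6 of 0.13 and -0.32.

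**Figure D2:**
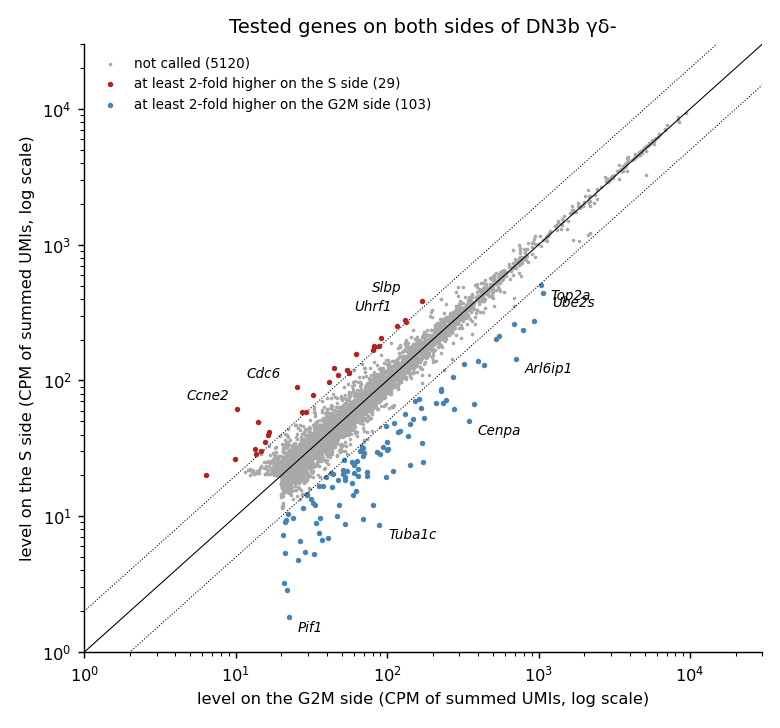
Level of each of the 5252 genes compared on the G2M side (x axis) and on the S side (y axis) of DN3b γδ-, in CPM on log scales, with the solid line at equality and the dotted lines at 2-fold. The 29 genes higher on the S side (red) reach up to Ccne2, and the 103 genes higher on the G2M side (blue) spread further, down to Pif1.

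E2F family members and E2F-linked factors did not move as a block. Mybl2, which encodes B-MYB, was at 58.99 and 27.6 CPM (1.098, 1.03 to 1.17), and the atypical repressor E2f8 at 33.2 and 16.6 CPM with 0.998, just under 2-fold. E2f2 and E2f3 had log2 ratios of 0.44 and 0.43. In the same list, the 3 CDK inhibitors compared lay on the other side. Cdkn2d, which encodes p19-INK4d, was at 31.6 and 69.2 CPM (-1.13, -1.198 to -1.06), Cdkn2c at a log2 ratio of -0.797, and Cdkn1b, which encodes p27, at 30.8 and 43.5 CPM (-0.497). Of 16 members of this list compared, 3 were at least 2-fold higher on the S side and 1 on the G2M side, with a median of 0.36 that became -0.07 by UMIs per barcode.

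Origin licensing and firing genes were higher on the S side in 19 of 20 members compared, 5 of them at least 2-fold, with a median log2 ratio of 0.73. Cdc6, which loads the MCM helicase (chr11:98907801-98923940), stood at 89.3 CPM on the S side and 25.3 CPM on the G2M side, with 60.3 CPM in neither and a log2 ratio of 1.82 (1.75 to 1.88). Gins2, a subunit of the replicative helicase, was at 109.5 and 47.2 CPM (1.21). Mcm4 and Mcm2, subunits not used by the rule, had 1.14 and 1.04, and the checkpoint adaptor Clspn had 1.11. Dbf4, the activating subunit of the CDC7 kinase that fires origins, was the single member with a negative ratio, at 46.3 CPM on the S side and 98.6 CPM on the G2M side (-1.09, -1.15 to -1.04), while its partner Cdc7 stood at 45.4 and 33.9 CPM (0.42). By UMIs per barcode Cdc7 was level at -0.01 and Dbf4 at -1.52, and 17 of the 20 members were higher on the S side.

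DNA polymerases and fork genes were all higher on the S side by CPM (23 of 23, 2 at least 2-fold, median 0.66), and 18 of 23 were so by UMIs per barcode. Rfc3, a subunit of the clamp loader, was at 158 and 62.3 CPM (1.34, 1.297 to 1.38), although its partners Rfc1, Rfc2, Rfc4 and Rfc5 had only 0.52, 0.66, 0.45 and 0.27. Within the single-strand binding complex RPA, Rpa2 was at 206 and 91.7 CPM (1.17), against 0.55 for Rpa1 and 0.19 for Rpa3. Subunits of 1 complex thus differed in their ratios. Pcna, the sliding clamp, was at 395 and 225 CPM (0.81), and Pold1 at 74.5 and 70.2 CPM (0.09, or -0.34 by UMIs per barcode).

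Nucleotide synthesis genes had a smaller median of 0.38, with 22 of 22 higher on the S side by CPM. By UMIs per barcode the median became -0.05 and 9 of 22 were higher on the S side, against 246 of all 5252 genes compared. Tk1, Rrm2 and Umps had log2 ratios of 0.76, 0.75 and 0.74. Rrm1, the large subunit of ribonucleotide reductase, and Tyms, thymidylate synthase, were nearly level at 0.06 and 0.12. The 2 subunits of ribonucleotide reductase thus differed, with Rrm2 at 330.4 and 196 CPM and Rrm1 at 171 and 164 CPM.

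Chromatin assembly and DNA methylation upkeep had the highest median of all lists, 1.01 over 11 members, 6 of them at least 2-fold higher on the S side. Chaf1b and Chaf1a, subunits of the CAF-1 histone chaperone, were at 124 and 44.7 CPM (1.48) and 114 and 55.8 CPM (1.03). Slbp, which binds the stem loop of histone mRNA, was at 386 and 169.8 CPM (1.19, 1.16 to 1.21). Uhrf1, Hells and Atad2 had 1.097, 1.11 and 1.01. Atad2 (0.98 to 1.04) and Chaf1a (0.98 to 1.07) were close to the limit and fell under it in 7 and 3 of 21 alternative settings. In contrast, Dnmt1, the maintenance DNA methyltransferase that UHRF1 recruits, had 0.299 and the PCNA partner Pclaf 0.07.

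DNA repair and checkpoint genes were higher on the S side in 13 of 13 members compared (median 0.79), with Brca1 at 39.97 and 16.2 CPM (1.301, 1.21 to 1.39) and Exo1 at 58.4 and 29.1 CPM (1.004, 0.94 to 1.07) at least 2-fold. Exo1 was just past the limit and fell under it in 12 of 21 alternative settings. By UMIs per barcode 11 of the 13 were higher on the S side. Brca2 had 0.34. Among genes in none of the lists, the ranking toward the S side held Donson, a replication fork factor, at 20.3 and 6.33 CPM (1.68), Dscc1, a subunit of an alternative clamp loader, at 31.2 and 13.3 CPM (1.23), and the transcription factors Zfp367 and Tcf19 with 1.43 and 1.35. Wdr76, Zmynd19 and Rnf227 were at 97.6 and 41.3 CPM, 77.9 and 32.3 CPM and 35.5 and 15.6 CPM, with log2 ratios of 1.24, 1.27 and 1.19. The level of Donson in the spiked B barcodes, which hold free RNA of other cells as well as their own RNA, was 21.5 CPM from 15 UMIs and thus no lower than on the S side. Donson also stood just above the minimum of 20 CPM and fell under the minimum in some alternative settings. It was compared in 18 settings, counting the main one, and was past 2-fold in all 18.

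On the G2M side, regulators of mitotic entry were high together. Of 18 mitotic cyclins, kinases and FOXM1 compared, 14 were at least 2-fold higher on the G2M side, with a median log2 ratio of -1.42. The phosphatases that activate CDK1, Cdc25b and Cdc25c, were at 12.1 and 80.3 CPM (-2.73, -2.83 to -2.63) and 5.27 and 32.95 CPM (-2.64, -2.797 to -2.496), whereas Cdc25a, which acts at the G1 to S transition, was at 84.1 and 59.4 CPM (0.501). Polo-like kinase 1 (Plk1) stood at 23.8 CPM on the S side and 141 CPM on the G2M side, with 52.7 CPM in neither and a log2 ratio of -2.57 (-2.64 to -2.495). Aurka was at 21.5 and 109 CPM (-2.34), and its relative Aurkb at 48.4 and 111 CPM (-1.19).

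Besides Ccnb1, which the rule used, the mitotic genes compared included the cyclin Ccnb2 at 68.04 and 211 CPM (-1.63), Ccna2 at 87.02 and 226 CPM (-1.38) and Cdk1 itself at 82.9 and 228 CPM (-1.46). Foxm1 was low in both, at 11.5 and 27.8 CPM (-1.27). The kinases that hold CDK1 inactive did not follow, since Wee1 was at 47.3 and 43.96 CPM (0.11) and Pkmyt1 at 29.9 and 22.3 CPM (0.43). By UMIs per barcode these kinases were at -0.32 and -0.01, as any ratio between 0 and 0.43 turns with that shift. Cdkn3, a phosphatase of CDK proteins, was at 6.97 and 40.5 CPM (-2.54).

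Genes of the APC/C differed in their ratios. Fzr1, which encodes the late APC/C activator CDH1, was at 19.5 CPM on the S side and 98.6 CPM on the G2M side, with 31.2 CPM in neither and a log2 ratio of -2.34 (-2.42 to -2.26). The chain-elongating enzyme Ube2s was at 442 and 1074 CPM (-1.28). The core subunits Cdc16, Cdc26, Anapc5, Anapc11 and Anapc13 lay between -0.13 and 0.04, and Cdc27 and Cdc23 were at -0.69 and -0.44. Fbxo5, which encodes the APC/C inhibitor EMI1, was on the S side at 121 and 88.4 CPM (0.45). Of the 12 members compared, Fzr1 and Ube2s were thus the 2 at least 2-fold apart.

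Spindle motors and microtubule genes gave the strongest shift of any list, with 27 of 27 members higher on the G2M side, 23 at least 2-fold, and a median of -1.51. Tuba1c, an α-tubulin gene (chr15:99029891-99038110), had 668 UMIs on the S side and 9132 on the G2M side, or 8.69 CPM (8.05 to 9.38) and 88.2 CPM (86.4 to 90.03), a log2 ratio of -3.34 (-3.46 to -3.23). The far more abundant Tuba1b was at 1087 and 1676 CPM (-0.62), and the β-tubulin genes Tubb4b and Tubb5 at 273 and 934 CPM (-1.77) and 1184 and 2102 CPM (-0.83). The tubulin genes share long stretches of sequence, so reads between them may not be split fully. Stmn1, which destabilises microtubules, was level at 2095 and 2171 CPM (-0.05).

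Hmmr, a spindle-associated protein, was at 25.1 and 173 CPM (-2.79, -2.86 to -2.72), Nusap1 at 67.5 and 373 CPM (-2.47) and Tpx2, which activates Aurora A, at 61.4 and 276 CPM (-2.17). Kinesin motors of the spindle list ranged from -2.02 for Kif2c to -0.73 for Kif15. Prc1 and Racgap1, of the central spindle, were at -1.76 and -1.82. Aspm, a spindle pole protein in none of the lists, was at 9.59 and 69.4 CPM (-2.86, -2.97 to -2.75), and Psrc1 and Arhgap19 at 4.802 and 25.9 CPM (-2.43) and 6.68 and 37.3 CPM (-2.48).

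**Figure D3:**
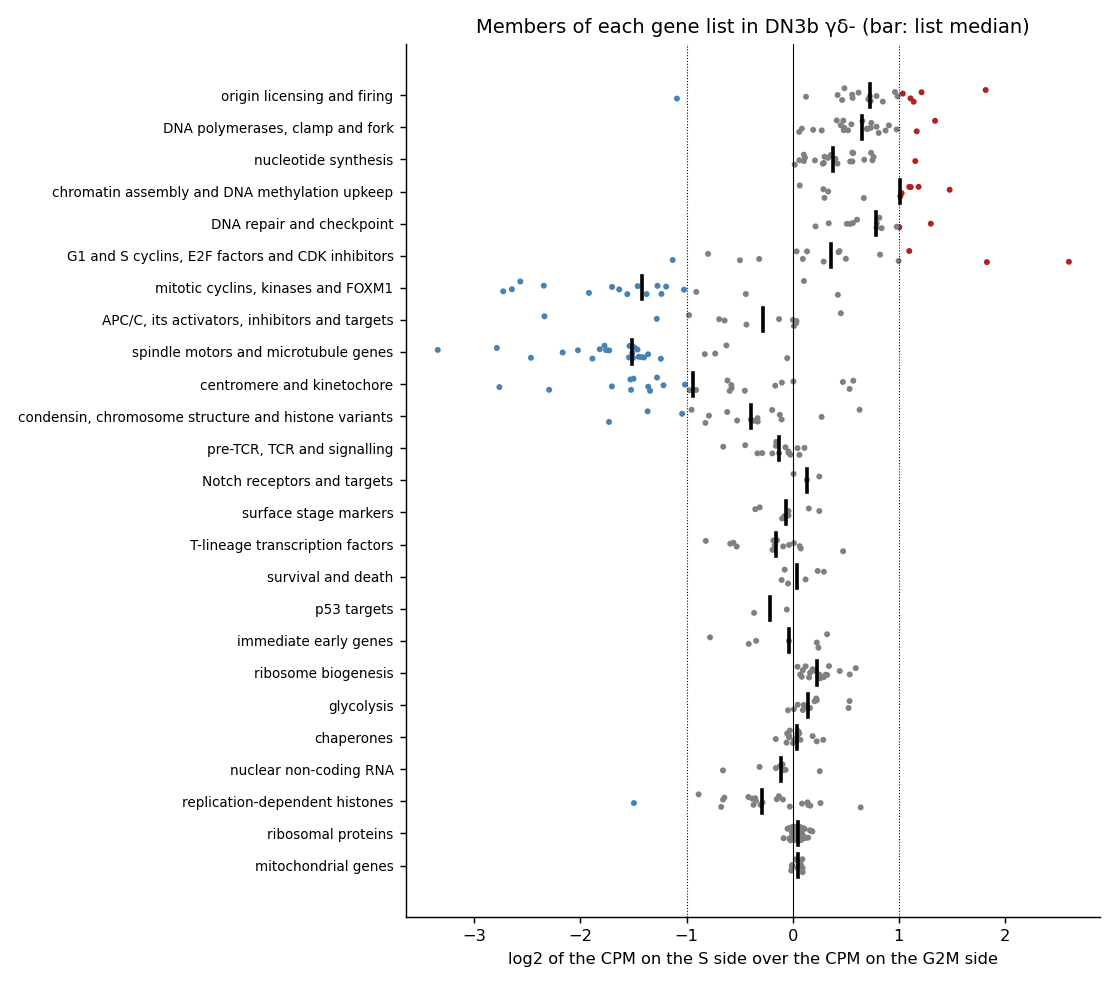
The log2 ratio of S side over G2M side (x axis) of each member compared in each gene list, 1 point a gene, red where at least 2-fold higher on the S side and blue where at least 2-fold higher on the G2M side, with a black bar at the list median. The replication lists lie to the right with Dbf4 alone at the far left of the first, the spindle list lies wholly left of 0, and the T cell lists lie within 2-fold.

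Centromere and kinetochore genes differed among themselves. Of 24 compared, 11 were at least 2-fold higher on the G2M side (median -0.94). Cenpa, the centromeric histone H3 variant, stood at 50.7 CPM on the S side and 344 CPM on the G2M side, with 123 CPM in neither and -2.76 (-2.81 to -2.71). Cenpe, a kinetochore motor, was at 34.7 and 169.98 CPM (-2.29). The chromosomal passenger genes Birc5, Incenp and Cdca8 had -1.36, -1.34 and -1.53. Some genes of the inner kinetochore network had positive ratios. Cenph was at 74.4 and 50.1 CPM (0.57), Cenpu at 20.7 and 14.3 CPM (0.54) and Cenpk at 77.5 and 55.9 CPM (0.47). Cenpn and Cenpp of the same network were at -0.45 and -0.58.

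Chromosome structure genes had a median of -0.39, with 3 of 17 at least 2-fold higher on the G2M side. H2afx, the histone H2A variant of DNA damage signalling, was at 236 and 784 CPM (-1.73, -1.75 to -1.71), Mki67 at 213 and 548 CPM (-1.37) and Top2a at 504 and 1037 CPM (-1.04). The condensin I subunits Ncapd2, Ncapg and Ncaph had -0.79, -0.95 and -0.62, and the condensin II subunits Ncapd3 and Ncapg2 had 0.27 and 0.63. By UMIs per barcode Ncapd3 was at -0.16 and Ncapg2 at 0.199.

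The mRNA of replication-dependent histone genes mostly has no poly(A) tail, while the capture primes on poly(A). What part this has in their measured levels was not tested. The histone genes were not higher on the S side in sum. Their summed level was 1596 CPM (1587 to 1605) on the S side, 1700 CPM in neither and 1812 CPM (1804 to 1820) on the G2M side. Of 22 compared, 16 were lower on the S side and 1 at least 2-fold lower (Hist3h2a, -1.495), with a median of -0.29. Over all 5252 genes compared, 2776 were lower on the S side and 1.96% at least 2-fold lower. Among genes for linker histones, Hist1h1b was at 391 and 355 CPM (0.14, or -0.29 by UMIs per barcode) and Hist1h1c at a log2 ratio of -0.304. These genes are close copies, so their reads may not be told apart.

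The largest ratio toward the G2M side was outside the lists. Pif1, a DNA helicase (ENSMUSG00000041064, chr9:65587160-65595967), had 139 UMIs on the S side and 2320 on the G2M side, or 1.81 CPM (1.52 to 2.14) and 22.4 CPM (21.5 to 23.3), a log2 ratio of -3.63 (-3.89 to -3.38). Tnfaip8l1 was at 2.85 and 21.8 CPM (-2.94, -3.14 to -2.74), Prr11 at 3.21 and 20.9 CPM (-2.701) and Pimreg at 8.81 and 52.9 CPM (-2.59). These 4 genes were low on the S side, at no more than 8.81 CPM, and stood just above the minimum level on the G2M side except Pimreg.

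**Figure D4:**
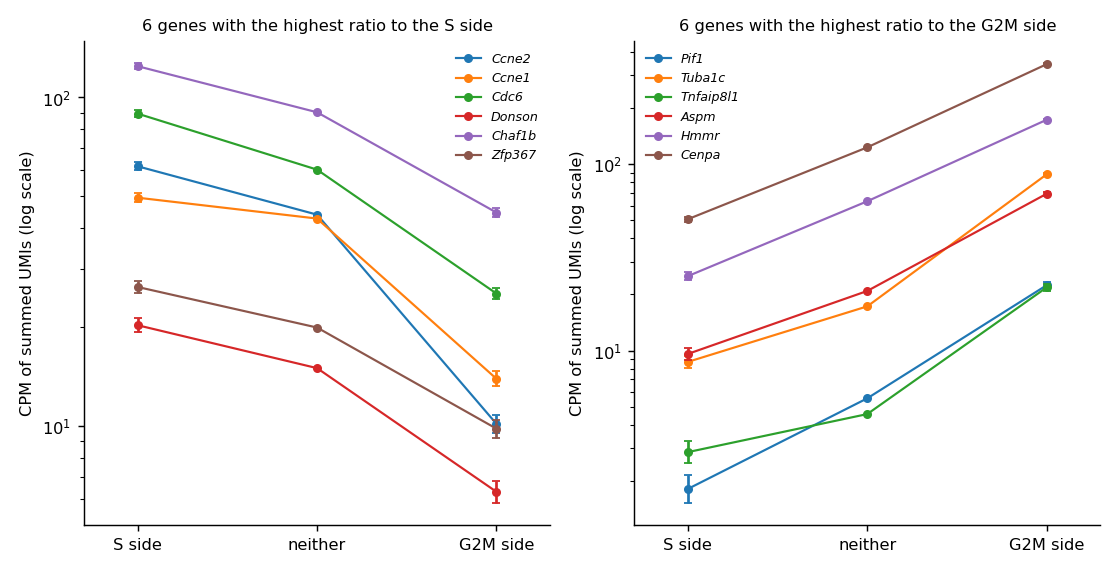
Level in CPM (y axis, log scale) on the S side, on neither side and on the G2M side for the 6 genes with the largest ratio in each direction, 1 line a gene, with exact 95% Poisson intervals on both sides. Every line runs in 1 direction, and both E cyclins drop more between neither and the G2M side than between the S side and neither.

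Barcodes on neither side lay between the sides for all 29 genes of the S side and all 103 of the G2M side. The same scores set this group apart, and the genes were picked for their difference between the sides. An intermediate level was therefore likely in advance and is a description only. Within the G2M side, split into 4 equal parts by its own score, 86 of the 103 genes were higher and 2 (Spc25 and Mxd3) lower at each step, and the median gene was 1.28 times higher in the highest part than in the lowest. Within the S side, 11 of 29 were higher at each step, 1 was lower at each step (Ccne1, from 52.8 to 46.3 CPM), and the median gene was 1.098 times higher in the highest part. The parts were cut by the scores that chose the barcodes, and the scores span unlike ranges, so these are descriptions and the sides are not compared.

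Of 15 genes of the pre-TCR, TCR and signalling list, none was 2-fold apart, which is near the shares over all genes compared (0.552% and 1.96%). The list median was -0.13, against -0.01 over all genes. Cd3e, a chain of the TCR complex, was at 421 and 470.2 CPM (-0.16), the kinase Lck at 446 and 497 CPM (-0.16) and Ptcra, the pre-TCR α chain, at 62.3 and 57.7 CPM (0.11). Rag1, of the recombinase, had the lowest ratio of the list at 25.01 and 39.4 CPM (-0.65, -0.73 to -0.58).

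Of 14 T-lineage transcription factors compared, none was 2-fold apart (median -0.16), again near those shares. Below -0.5 lay 4, where 91.6% of all genes compared lay within 0.5 of 0. Runx1 was at 95.9 and 169 CPM (-0.82), Satb1 at 139.9 and 210.4 CPM (-0.59), Gata3 at 65.8 and 96.96 CPM (-0.56) and Bcl11b at 261 and 377 CPM (-0.53), while Tcf7 was level at 467 and 463 CPM (0.01) and Runx3 higher on the S side at 26.6 and 19.1 CPM (0.47). Among surface markers, Tfrc, which encodes the CD71 of the sort, was at 76.8 and 69.1 CPM (0.15) and Il2ra, the CD25 of the sort, at 106 and 89.04 CPM (0.25). Il2ra, Hes1 and Notch1 were the 3 members compared of the Notch list (median 0.13). Cd28 was at 75.7 and 96.6 CPM (-0.35), the lowest ratio among 8 surface markers compared (median -0.06).

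Growth genes differed little and mostly in 1 direction. All 20 ribosome biogenesis genes were slightly higher on the S side by CPM (median 0.23, none 2-fold), led by Nolc1 at 368 and 244 CPM (0.59), and the median became -0.20 by UMIs per barcode. Glycolysis genes had a median of 0.14 (11 of 12 positive), chaperones 0.04 (11 of 17), ribosomal proteins 0.05 (72 of 82) and mitochondrial genes 0.05 (9 of 13). Each of these 4 medians also became negative by UMIs per barcode. By CPM, 2476 of all 5252 genes compared were positive. Survival and death genes had a median of 0.04 over 6 compared and immediate early genes -0.04 over 7, with Klf6 lowest at 22.7 and 38.98 CPM (-0.78). Of 12 p53 targets, 2 reached the minimum level, with Mdm2 at -0.06 and Trp53inp1 at -0.36. Of the nuclear non-coding RNAs, Malat1 was at 3262 and 5143 CPM (-0.66), and the median over 8 was -0.11.

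Markers of other cell types differed between the sides by less than 1.5 times in their sums. The 10 T cell markers summed to 6634 CPM on the S side and 7285 CPM on the G2M side, and no defining T marker was at 0. The 10 B cell markers summed to 239 and 258 CPM, mostly from Ighm. They include Cd79a, Cd79b and Ms4a1, which the eligibility rule had limited to at most 1 UMI per barcode, so their low level was set in advance. Of these 10, 7 were higher on the S side, among them Cd74 at 6.04 and 2.66 CPM, H2-Aa at 1.81 and 0.657 CPM and H2-Eb1 at 1.43 and 0.57 CPM. The sum was 45663 CPM in 257 spiked B barcodes that held at least 10 UMIs of Cd79a, Cd79b and Ms4a1 and under 10 of T cell markers. The 7 myeloid markers summed to 94.9 and 106 CPM, mostly Cst3, with S100a9 at 0. The 4 erythroid markers summed to 2.84 and 1.99 CPM. The 5 NK markers summed to 629 and 791 CPM, nearly all from Gzma, with Ncr1 and Klrd1 at 0. Nkg7 went the other way, at 38.3 CPM on the S side and 22.3 CPM on the G2M side (0.78). The 5 plasmacytoid markers summed to 1146 and 913 CPM, mostly Ly6d and Bst2, with Siglech at 0. The part of these differences in the ratios was not tested.

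The spiked B barcodes, whose median was 2420 UMIs, hold free RNA of the other cells together with RNA of their own, so a level in them is not a measure of free RNA alone. Zbtb20, chosen here after its values were seen, was at 172 CPM in them and at 9.38 and 21.4 CPM on the S and G2M sides. Over the 29 genes of the S side the median level in them was 15.8 CPM, and over the 103 of the G2M side 12.9 CPM. The B level was above the lower side for 3 and 21 of these genes. Among the 21 were Pif1, at 4.30 CPM from 3 UMIs against 1.81 CPM on the S side, and Tuba1c, at 35.8 against 8.69 CPM. Cdc25b (53.03 against 12.1 CPM) and Cenpa (110 against 50.7 CPM) were also among them. How far free RNA sets the lower side was not tested.

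The same rule was applied to DN4 γδ- and DN3b γδ+, each with the highest 25% by its own scores. DN4 γδ- gave 2952 barcodes a side, with 19 genes at least 2-fold higher on the S side (0.382% of 4976) and 100 on the G2M side (2.01%). DN3b γδ+ gave 2749 barcodes a side, with 60 on the S side (1.13% of 5321) and 156 on the G2M side (2.93%). The G2M cutoffs were 1222 marker UMIs per 1000000 in DN3b γδ-, 1071 in DN4 γδ- and 755 in DN3b γδ+. The S cutoffs were 1371, 1069 and 1377 in the same order. The sides were thus not matched between libraries. With 1 library each, no difference between them was tested.

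All 132 genes with a 2-fold difference in DN3b γδ- had the same sign in both other libraries. These libraries share the same pool of animals, so equal signs do not show agreement between animals. Of the 29, 28 reached the minimum level in DN4 γδ- and all 29 in DN3b γδ+, and of the 103, 96 did so in each. Of the 29, 18 were also at least 2-fold higher on the S side of DN4 γδ- (62.1% of the 29 and 94.7% of its 19) and 19 in DN3b γδ+ (65.5% of the 29 and 31.7% of its 60). Of the 103, 93 were so on the G2M side of DN4 γδ- (90.3% of the 103 and 93% of its 100) and 94 in DN3b γδ+ (91.3% of the 103 and 60.3% of its 156). Over the 103 genes the median log2 ratio was -1.51 in DN3b γδ-, -1.497 in DN4 γδ- and -1.89 in DN3b γδ+. Over the 29 the medians were 1.19, 1.09 and 1.21.

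Ratios of single genes and lists varied in size between the libraries. The log2 ratio of Ccne1 was 1.83 in DN3b γδ-, 1.58 in DN4 γδ- and 0.797 in DN3b γδ+, and that of Ccnb2 was -1.63, -1.41 and -3.24 in the same order. Cenpa had -2.76, -2.304 and -3.84. E2f8 had 0.998, 0.75 and -0.08, and Dbf4, on the G2M side in all 3, had -1.09, -1.04 and -1.21. The median of the replication-dependent histones was -0.29, -0.23 and -0.99, with 10 of 21 at least 2-fold higher on the G2M side in DN3b γδ+. Malat1 had -0.66, -0.597 and 0.12.

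**Figure D5:**
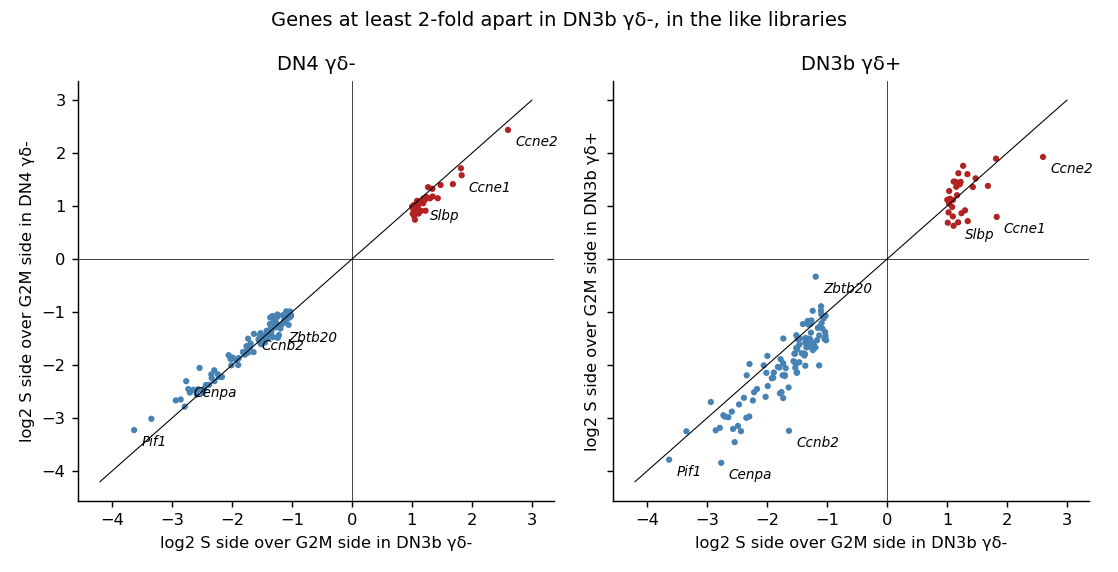
The log2 ratio of S side over G2M side in DN3b γδ- (x axis) against that in DN4 γδ- (left) and DN3b γδ+ (right) for the 29 (red) and 103 (blue) genes at least 2-fold apart in DN3b γδ-, with the diagonal at equality. All points lie in the quadrants of equal sign, close to the diagonal on the left and more spread on the right, where Ccnb2 and Cenpa lie below it and Ccne1 nearer to 0.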

How the data were processed

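Thymocytes of 7 sorted groups, 1 library each, were profiled with 10x 3′ v3 chemistry. The deposited files hold UMI counts per gene and barcode, which the authors made with Cell Ranger on mm10. The version is 4.0.0 in the headers of the matrices and 5.0.1 in the submitters' processing notes, where R 3.6.3 and Seurat 3.1.5 are also named. The counts had been neither scaled nor corrected, and barcodes were those that the software took for cells. The DN3b γδ- library held 375688164 UMIs, the other libraries 49407750 to 263137408.

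The members and gene lists were chosen with earlier results of these data known. UMIs were summed per side and scaled to CPM (Python 3.11.15 with scipy 1.17.1 and numpy 2.4.6). A count of 3 or less entered a ratio as 3. Levels have exact Poisson and log2 ratios exact conditional binomial 95% intervals. The ratio and the 2-fold limit were run on simulated Poisson counts. The changed genes there were all set well past the limit, so calls close to it were not tested. TMM factors came from edgeR 4.0.16 (R 4.3.3) as an alternative only, and no p-value was computed, with 1 library a group. Named genes are the 9 marker genes, the 15 highest and 15 lowest ratios outside mitochondrial and ribosomal protein genes, and members of the fixed lists. Positions came from GENCODE vM21, promoters from RefSeq. Aldoa, whose symbol 2 features share, was left out of its list. Some list members are not reported here by name. No doublet caller was run. Barcodes highest by both scores, as a mix of an S and a G2M cell could be, were dropped, and an alternative left out the 8% of barcodes with the most UMIs. Of the 8940 barcodes of both sides, 180 (2.01%) had a sequence that also occurs in another library, and 57 to 93 deposited barcodes were shared with each other library. Replicates did not exist, so the spread between animals is unknown.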

Additional observations from a re-analysis of the deposited data

Results flagged for a closer look

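A ratio of opposite sign in a compared library, with a size of at least 0.3 on the log2 scale in both and both intervals clear of 0, was found for 3 listed genes, all in DN3b γδ+. Fbxo5 had 0.45 in DN3b γδ- and -0.51 in DN3b γδ+. Hist1h2bc had 0.64 and -1.099. Cd28 had -0.35 and 0.34. All of these are ratios by CPM. By UMIs per barcode every ratio in DN3b γδ- shifts by -0.43, which nearly cancels that of Fbxo5. In DN3b γδ+ the mean UMIs per barcode were 15444 on the S side and 20574 on the G2M side. Its ratios would thus also be lower by UMIs per barcode. That of Cd28 there would turn negative, the sign it has in DN3b γδ-. With 1 library per group these differences were not tested.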

How the results depend on the processing

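Against 29 genes on the S side and 103 on the G2M side, 18 of 19 alternative settings kept the G2M count within 1.5 times and 16 kept the S count so. With the highest 10% by each score the S count was 69, and with the highest 33.3% it was 17. With no CPM minimum the counts were 782 and 480, over 15282 genes. By UMIs per barcode, added after seeing the data, they were 6 and 197. Leaving out every barcode whose sequence also occurs in another library, also added later, gave 28 and 105. The sides were drawn anew there, with 4378 barcodes on the S side. At 8000 UMIs per barcode, with 1222 shallower barcodes left out and ties placing 5003 and 4195 barcodes on the sides, they were 31 and 112. No gene of the 132 changed sign under any of these 21 alternatives. List medians changed sign by UMIs per barcode, which lowers every ratio by 0.43, for 9 lists whose medians by CPM were 0.04 to 0.38, with at least 50 CPM for the APC/C list (from -0.28 to 0.0015), and with the highest 10% for the immediate early genes (from -0.04 to 0.06). No paired analysis was possible because each group has 1 library. Intervals cover counting error only, and what another pool of thymi would give is not known.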
